A study of Mus musculus with 6 samples.

Results

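The nuclear genes that encode subunits of the mitochondrial respiratory chain and of ATP synthase were followed in MLO-Y4 cells under fluid flow. Members were taken by symbol: Nduf followed by a, b, c, s or v and a digit, Uqcr, Cox followed by a digit from 4 to 8, or Atp5. Of 39174 genes in the expression table, 82 matched and 1, whose symbol marks it as a pseudogene, was left out, so that there were 81 members. By name, 37 belong to complex I, 8 to complex III, 18 to complex IV and 18 to complex V. The symbols do not all mark subunits of the complex they point to. Ndufa4 is now assigned to complex IV and Ndufa4l2 is its paralog, Cox7a2l helps to join complexes into supercomplexes, Atp5s is a coupling factor, Atp5sl assists complex I assembly, and Atp5l2 is annotated as a processed pseudogene. Conversely, Ndufab1, Cyc1, Usmg5 and 2010107E04Rik, which do encode subunits, have other symbols and are given with the further gene lists.

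MLO-Y4 is an established mouse line with features of osteocytes, the cells that sit inside bone matrix and sense load. In the flow group, 3 cultures on collagen-coated glass received 2 h of oscillating flow at a shear stress of 10 dyn/cm2 and were lysed after 2 h more in fresh medium. In the non-flow control group, 3 cultures received a sham treatment in parallel. Replicates were collected on different days, per the labels, and the comparison asks which transcripts differ after flow. All 6 libraries come from the same line, so the groups share its genotype, and nothing was measured at the protein level.

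The respiratory chain passes electrons from NADH (through complex I) and succinate (through complex II) to coenzyme Q, complex III, cytochrome c and finally to oxygen at complex IV. The protons pumped on the way return through complex V, the ATP synthase, which makes ATP. Complexes I, III, IV and V are built from proteins of both the nuclear and the mitochondrial genome, and some subunits of complex IV have isoforms that replace each other in muscle, lung or testis.

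Values are FPKM, fragment numbers scaled to transcript length and library depth, as deposited by the authors. Depth, read from the smallest steps of these values, was 17910000 to 19010000 reads in the controls and 11020000, 5750000 and 19230000 reads in flow libraries 1 to 3. A transcript of 1 kb effective length with 3 reads would then read 0.156 to 0.521 FPKM. Each difference is the flow mean less the control mean of log2(FPKM + 1), tested with limma over the 11957 genes averaging 1 FPKM or more, of which 2 (0.0167%) had a Benjamini-Hochberg adjusted p under 0.05. Flow libraries 1 and 2 stood apart from the other 4. In both, protein-coding genes with a higher GC content read lower, with a correlation across 10460 genes of -0.56 and -0.54, against 0.01 in flow library 3 and -0.04 to 0.04 in the controls. Where the log2 fold change of a single gene is given from this fit, the value with that trend removed is added if it moves by more than 1.5 times. Genes described by their FPKM alone carry no such value, though the shift can be as large. For Cycs the difference was 0.37, and 0.16 with the trend removed, for Cox8a 0.20 and 0.40, and for Cox7b -0.12 and -0.31. Of 12 osteocyte and osteoblast markers 8 reached the tested level, led by Gja1 and Pdpn, whereas Sost, Mepe and Fgf23 were listed at 0 in all libraries and Dmp1 in 4 of them. Of 8 macrophage and osteoclast markers 2 were tested, Ctsk at a control mean of 207 FPKM and Cd68 at 2.24 FPKM. The 8 summed to 196 to 219 FPKM in controls and 167 to 209 FPKM in flow, with Itgam and Calcr listed at 0 in all libraries. Of 5 endothelial markers Eng alone was tested, at a control mean of 101 FPKM. The 5 summed to 90.2 to 117 FPKM in controls and 78.2 to 91.2 FPKM in flow, and Kdr was listed at 0 in all libraries. The 5 adipocyte markers summed to 4.20 to 4.50 FPKM and 4.14 to 4.68 FPKM, led by Fabp4, with Cidea listed at 0 throughout. The part of these markers in the results was not tested.

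Respiratory chain transcripts were abundant and lay close together in the 2 groups. Of the 81 members 74 reached the tested level, with a median level of 127 FPKM, against 15.5 FPKM over all genes tested. Their median transcript length was 751.5 nt, beside 2837 nt for protein-coding genes tested. FPKM is scaled to length, so levels of such short transcripts depend on the length used. Summed over all members, the level was 13610, 13010 and 13530 FPKM in non-flow controls 1 to 3 and 14020, 12910 and 13390 FPKM in flow libraries 1 to 3, so the sums overlapped. The median log2 fold change of the 74 was 0.04, beside -0.01 over all genes tested, with 43 above 0 and 31 below. By complex the median was 0.03 for complex I, 0.13 for complex III, 0.004 for complex IV and 0.08 for complex V. With single libraries left out in turn, these medians ranged from -0.0003 (without flow library 1) to 0.08 (without flow library 2) for complex I and from 0.05 (without flow library 1) to 0.16 (without flow library 3) for complex III. They ranged from -0.02 (without flow library 2) to 0.003 (without non-flow control 3) for complex IV and from 0.009 (without flow library 1) to 0.11 (without non-flow control 1) for complex V. No member passed the test: limma called 0 of 74 at an adjusted p under 0.05, and the smallest adjusted p among them was 0.559. At an unadjusted p under 0.05, 3 members (4.05%) were higher and 4 (5.41%) lower, beside 3.7% and 4.82% of all genes tested, so the members' shares lay near the background.

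The precision bounds what could have been missed. The 95% interval of the difference lay within 1.25-fold in either direction for 21 of the 74 members, within 1.5-fold for 50 and within 2-fold for 72. The median standard error was 0.125 for members and 0.165 over all genes. In 7 members (9.46%) the 3 flow values lay above all 3 controls, and in 7 others (9.46%) below, beside 7.12% and 8% of all genes tested. Those above were Cox7a2, Cox7c, Ndufa4, Ndufb6, Ndufb9, Ndufc1 and Ndufv2, and those below were Atp5b, Atp5g2, Atp5sl, Cox4i1, Cox6a1, Ndufa10 and Ndufs7. These counts depended on single libraries. The 3 higher and 4 lower members at an unadjusted p under 0.05 became 16 (21.6%) and 9 (12.2%) without flow library 3, where 13% and 12.9% of all genes were past it, and limma called 0 members beside 0.201% of all genes. They became 0 and 0 without flow library 1, beside 1.79% and 2.85% of all genes, and 1 and 0 without flow library 2, beside 1.93% and 2.69%. Leaving out non-flow control 1 gave 2 and 1, beside 1.53% and 2.44% of all genes. For non-flow control 2 it gave 1 and 0, beside 1.52% and 2.98%, and for non-flow control 3 it gave 1 and 1, beside 1.81% and 3.28%. In the authors' other table of FPKM, in which 4 of the 6 columns carry the titles of these libraries and the depth is lower, limma called 0 of 73 tested members, beside 0.0252% of its genes. There 4 members were higher and 0 lower at an unadjusted p under 0.05, beside 3.01% and 3.38%.

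**Figure D1:**
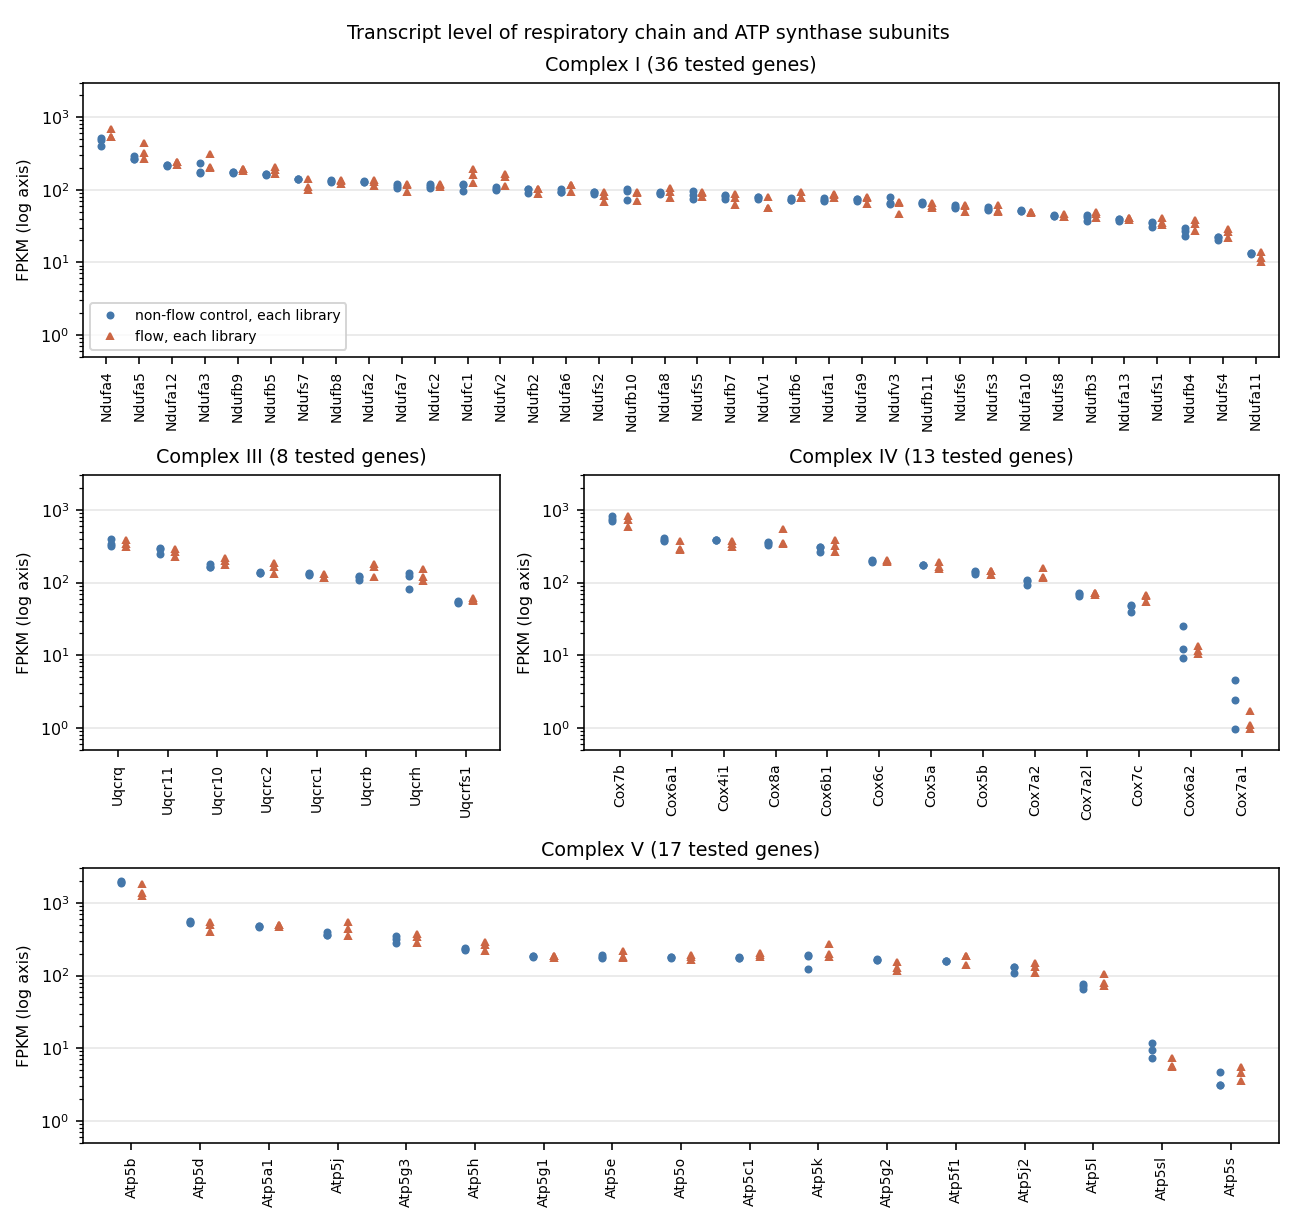
Level of the 74 tested members in FPKM on a log axis, by complex and ordered by the control mean, with circles for the 3 non-flow control libraries and triangles for the 3 flow libraries. Control means span from 2.61 FPKM for Cox7a1 to 1945 FPKM for Atp5b, and the groups overlap for 60 of the 74.

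**Figure D2:**
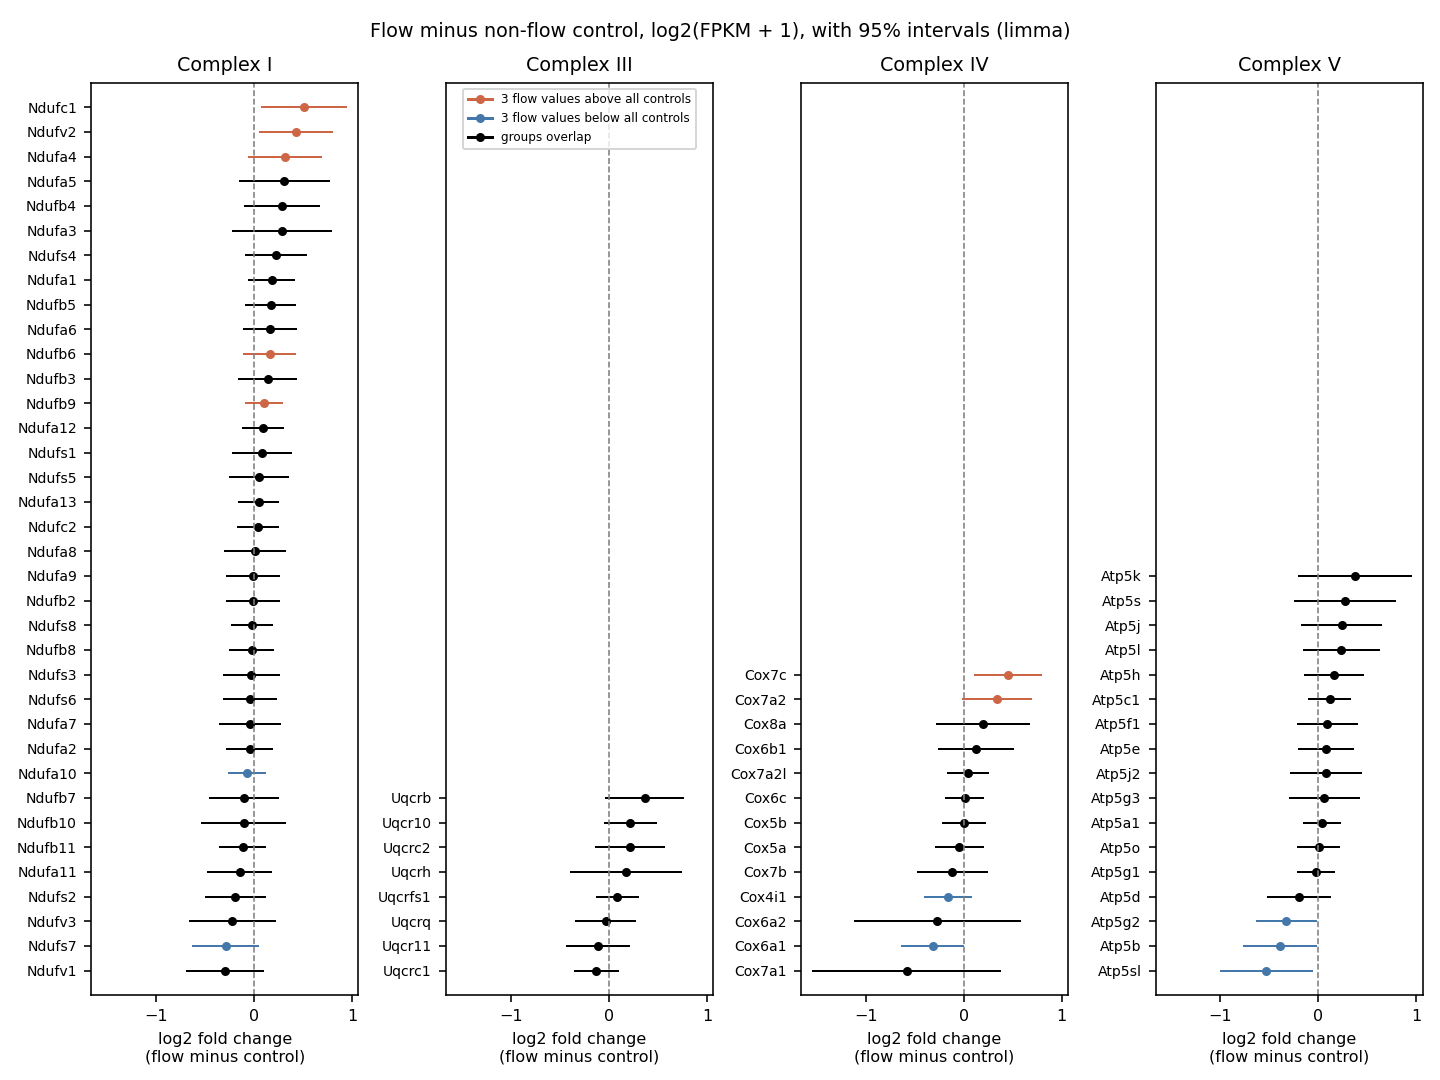
Log2 fold change (flow minus non-flow control, log2(FPKM + 1) scale) of each tested member with its 95% interval from limma, by complex. Orange marks the 7 members with all flow values above the controls, blue the 7 with all below, black the 60 that overlap.

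Complex I takes electrons from NADH through a peripheral arm of flavin and iron-sulfur proteins and pumps protons through a membrane arm. Of its 36 tested members 19 lay above 0 and 17 below, with a range of log2 fold changes from -0.29 to 0.51. The 7 core subunits, those with counterparts in bacteria, had a median of -0.03 (2 above 0, 5 below), and the 28 accessory subunits a median of 0.04 (16 above, 12 below). Its tested transcripts had a lower median level, 86.4 FPKM, than those of complexes III (143 FPKM), IV (172 FPKM) and V (185 FPKM).

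Ndufv2, an iron-sulfur subunit of the NADH-oxidizing module (chromosome 17 at 66078638 to 66101559, mm10), had 102, 99.6 and 108 FPKM without flow (controls 1 to 3) and 148, 164 and 112 FPKM after flow (libraries 1 to 3). The 3 flow values all exceeded the controls, with flow library 3 the nearest to them, and the log2 fold change was 0.43 (SE 0.15; limma, adjusted p = 0.559). Its partner Ndufv1, which binds NADH and the flavin, had 79.3, 74.05 and 78.5 FPKM without flow and 55.9, 55.4 and 80.2 FPKM after flow. Here flow libraries 1 and 2 were below the controls and flow library 3 above them. The ratio of Ndufv2 to Ndufv1 was therefore 1.29, 1.34 and 1.38 in the controls, 2.65 and 2.95 in flow libraries 1 and 2, and 1.39 in flow library 3. The transcripts differ in GC content, with 41.96% for Ndufv2 and 56.6% for Ndufv1, and with the GC trend of each library removed the log2 fold changes were 0.24 and -0.12.

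Ndufc1, an accessory subunit of the membrane arm (chromosome 3 at 51404677 to 51408988), had 118, 96.8 and 115 FPKM without flow and 192, 160.0 and 125 FPKM after flow. All flow values again lay above the controls, and flow library 3 was the lowest of them. The log2 fold change was 0.51 (SE 0.18), the highest of all members, and 0.37 with the GC trend removed. Ndufs7, which carries the last iron-sulfur cluster before coenzyme Q (chromosome 10 at 80249121 to 80256794), had 141, 142 and 139.5 FPKM without flow and 110.1, 99.5 and 139 FPKM after flow. The controls lay within 3 FPKM of each other and all flow values were below them, but flow library 3 by less than 1 FPKM. The log2 fold change was -0.29 (SE 0.14), and -0.06 with the GC trend removed.

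Ndufa5, an accessory subunit of the peripheral arm, was after Ndufa4 the most abundant transcript with a complex I symbol, at 263, 262 and 289 FPKM without flow and 444, 316 and 269 FPKM after flow. Flow libraries 1 and 2 were above the controls and flow library 3 was among them. Ndufa11, an accessory subunit of the membrane arm, was the lowest tested one at 12.99, 13.3 and 13.2 FPKM without flow and 11.6, 10.1 and 14.03 FPKM after flow. Its groups overlapped.

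Complex III passes electrons from reduced coenzyme Q to cytochrome c. All 8 members were tested and in all 8 the groups overlapped. The most abundant were the small subunits Uqcrq (358 ± 41.5 FPKM in controls, SD, n = 3) and Uqcr11 (282 ± 27.6 FPKM), which differed by more than either SD. The lowest was Uqcrfs1, the Rieske iron-sulfur protein, at 56.6, 52.5 and 53.4 FPKM without flow and 60.9, 57.1 and 55.1 FPKM after flow, so its values crossed by 1 library.

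Uqcrb, a small subunit near the quinone site (chromosome 13 at 66900617 to 66905378), had the highest difference of the complex, with 123, 110.3 and 121 FPKM without flow and 179, 165 and 119.9 FPKM after flow. Flow libraries 1 and 2 lay above the controls and flow library 3 within them, and the log2 fold change was 0.37 (SE 0.16; limma, adjusted p = 0.559), or 0.18 with the GC trend removed. Uqcr10, another small subunit, had 165, 163 and 178 FPKM without flow and 215, 202 and 174 FPKM after flow, with a log2 fold change of 0.22 (SE 0.11), or 0.37 with the GC trend removed. Only flow library 3 overlapped the controls. The core proteins Uqcrc1 and Uqcrc2, large subunits on the matrix side, form a further pair of unequal GC content (57.5% and 44.4%). Uqcrc1 had 135, 128 and 133 FPKM without flow and 115, 116 and 132 FPKM after flow. Uqcrc2 had 140.2, 134 and 137 FPKM and 164, 189 and 131 FPKM. Their ratio, Uqcrc2 to Uqcrc1, was 1.04, 1.05 and 1.03 in the controls and 1.43, 1.63 and 0.993 in flow libraries 1 to 3, so that flow libraries 1 and 2 were above the controls and flow library 3 was below them. With the GC trend removed the log2 fold changes were 0.06 for Uqcrc1 and 0.08 for Uqcrc2, where without removal they were -0.13 and 0.22.

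Complex IV, cytochrome c oxidase, hands electrons to oxygen. Its nuclear subunits surround a mitochondrially encoded core, and 13 of the 18 members were tested, 7 above 0 and 6 below. Cox7c, a small subunit with 1 membrane span and no isoform (chromosome 13 at 86044816 to 86046904), had the smallest unadjusted p of all members. Its level was 47.7, 38.8 and 48.9 FPKM without flow and 66.7, 66.3 and 53.6 FPKM after flow. No flow value, flow library 3 included, reached down to the controls, with a log2 fold change of 0.45 (SE 0.14; limma, adjusted p = 0.559). The value was 0.37 with the GC trend removed and 0.25 from flow library 3 alone. The most abundant was Cox7b, another small membrane subunit, with 840.3, 717 and 748 FPKM without flow and 834, 590.0 and 720.5 FPKM after flow, and the groups overlapped.

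Several subunits of complex IV exist as a widespread isoform and a muscle, lung or testis isoform, and in MLO-Y4 cells the widespread one made up nearly all of the transcript level per length. Cox4i1 (chromosome 8 at 120668222 to 120674207) held at least 99.95% of the Cox4 pair in every library, and its partner Cox4i2, known from lung, did not exceed 0.173 FPKM. Cox8b, a muscle isoform, was listed at 0 or below 0.66 FPKM beside 332, 367 and 351 FPKM of Cox8a in the controls. Cox6b2, known from testis, did not exceed 0.817 FPKM beside 296 ± 26.5 FPKM of Cox6b1 in controls (SD, n = 3). Cox7b2 and Cox8c, also known from testis, were listed at 0 in all 6 libraries. At a transcript length less 200 bases, 3 reads correspond to 0.456 to 1.53 FPKM for Cox7b2 and 0.605 to 2.02 FPKM for Cox8c, which is what a 0 allows. The values of Cox4i2 and Cox8b correspond to at most 1 and 2 reads, those of Cox6b2 to at most 6, and no fold was computed.

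The muscle isoforms Cox6a2 and Cox7a1 were the exceptions. Cox6a2 had 9.18, 25.4 and 12.3 FPKM without flow and 10.5, 13.3 and 11.4 FPKM after flow, with non-flow control 2 the highest. That was 2.38% to 5.84% of the Cox6a pair. Another gene on the opposite strand, Itgad, shares 10.3% of the exon bases of Cox6a2, and strand use is not given in the sources used here. Cox7a1 had 4.48, 2.39 and 0.974 FPKM without flow and 1.68, 1.07 and 0.963 FPKM after flow, and its groups overlapped. That was 0.508% to 2.55% of the sum of Cox7a1, Cox7a2 and Cox7a2l. The supercomplex factor Cox7a2l held 29.9% to 43.1% of this sum, so the share beside Cox7a2 alone is larger. The 8 striated muscle markers summed to 10.0 to 16.3 FPKM in controls and 6.36 to 10.7 FPKM in flow, of which Acta1 made up 82.8% to 95.3%. Ckm had up to 1.59 FPKM, Des up to 0.617 FPKM and Mb up to 0.506 FPKM. The highest sum, as the highest level of Cox6a2, was in non-flow control 2, whereas Cox7a1 was highest in non-flow control 1. Myod1, Myog and Myh7 did not exceed 0.055 FPKM. Whether these genes bear on Cox6a2 and Cox7a1 was not tested.

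Among the widespread isoforms, Cox6a1 (chromosome 5 at 115345642 to 115348981) had 377, 410.4 and 383 FPKM without flow and 295, 279 and 373 FPKM after flow. The flow values lay below the controls, in flow library 3 by less than 4 FPKM, and the log2 fold change was -0.31 (SE 0.13), or -0.10 with the GC trend removed. Cox7a2 (chromosome 9 at 79755361 to 79759878) went the other way, with 107, 92.4 and 110.3 FPKM without flow and 157, 120.2 and 117 FPKM after flow. The flow values all exceeded the controls, and the log2 fold change was 0.34 (SE 0.14), or 0.39 with the GC trend removed. Cox4i1 had 381, 388 and 382 FPKM without flow and 343, 310.1 and 380.0 FPKM after flow, all below, with flow library 3 within 2 FPKM of the controls. Its log2 fold change of -0.16 (SE 0.10) turned to 0.03 with the GC trend removed. Cox8a, the small subunit at the membrane face, had flow values of 342, 544 and 346 FPKM, of which flow library 2 alone exceeded the controls. Cox6b1, on the outer face, had 388, 268 and 321 FPKM in flow and overlapped its controls. Cox7a2l, the supercomplex factor, had 64.6, 71.8 and 69.3 FPKM without flow and 67.8, 72.7 and 71.6 FPKM after flow.

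Ndufa4, now counted as a subunit of complex IV (chromosome 6 at 11900292 to 11907497), was the most abundant transcript with an Nduf symbol, at 478, 394 and 519 FPKM without flow and 678, 532 and 528 FPKM after flow. Each flow value exceeded each control, the nearest by 9 FPKM, with a log2 fold change of 0.32 (SE 0.15; limma, adjusted p = 0.559), or 0.18 with the GC trend removed. Its paralog Ndufa4l2, which many cells induce at low oxygen, had 0.441, 0.583 and 0.624 FPKM without flow and 0.359, 0.229 and 0.137 FPKM after flow. All flow values were below the controls. The gene was under the tested level, and its values correspond to about 6 to 9 reads in the controls and 1 to 3 reads in flow, so no fold was computed. Its share of the pair was 0.120% ± 0.028 in controls and 0.041% ± 0.014 in flow (SD, n = 3).

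**Figure D3:**
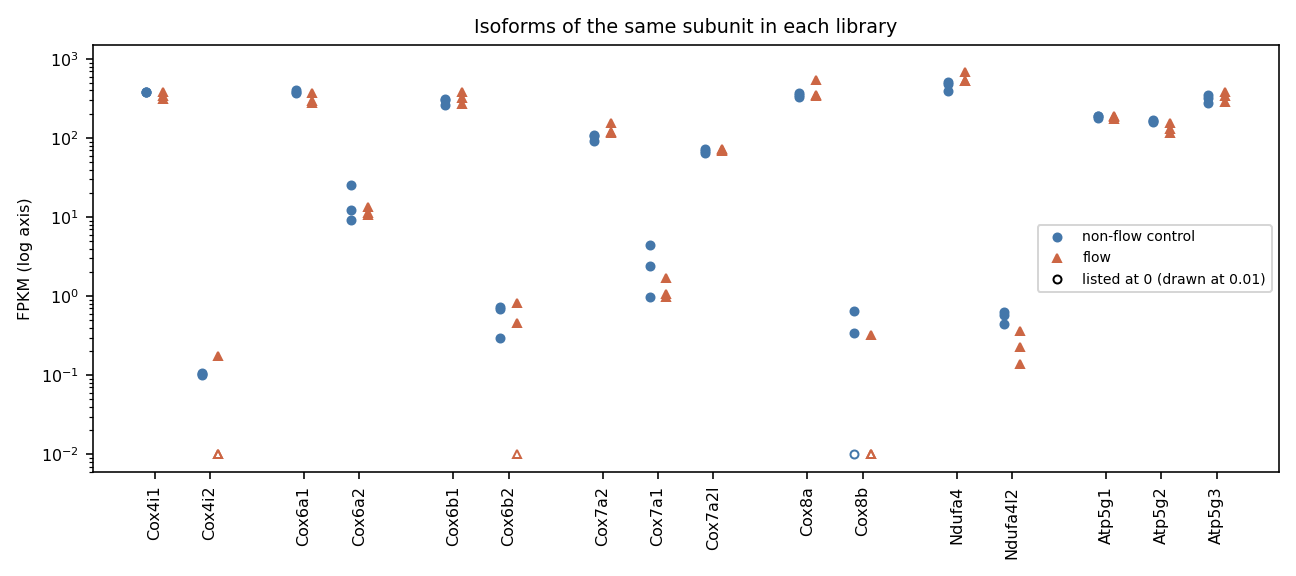
Level in FPKM on a log axis of isoforms of the same subunit, with circles for the 3 non-flow control libraries, triangles for the 3 flow libraries, and open symbols at 0.01 for values listed at 0. The muscle, lung and testis isoforms of complex IV lie at most at 25.4 FPKM (Cox6a2, non-flow control 2), below the widespread isoform of their family in every library.

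Complex V turns proton flow into ATP through a catalytic head, a stalk and a membrane rotor of c subunits. Of 17 tested members 12 lay above 0 and 5 below. For the 4 stalk subunits (Atp5f1, Atp5h, Atp5j and Atp5o) the median difference was 0.13 in log2, with all 4 above 0 and all 4 overlapping between groups. The 3 tested membrane subunits Atp5j2, Atp5k and Atp5l had a median of 0.23 and also overlapped.

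Atp5b, the catalytic beta subunit (chromosome 10 at 128083273 to 128090391), was the most abundant member. It had 1939, 2005 and 1890 FPKM without flow (controls 1 to 3) and 1265, 1392 and 1842 FPKM after flow (libraries 1 to 3). All flow values were below the controls, flow library 3 by 48 FPKM, and the log2 fold change was -0.39 (SE 0.15; limma, adjusted p = 0.559). The value was -0.35 with the GC trend removed and -0.08 from flow library 3 alone. The alpha subunit Atp5a1, which alternates with beta in the head, had 486, 463 and 483 FPKM without flow and 498, 473 and 498 FPKM after flow, and overlapped. The ratio of Atp5b to Atp5a1 was 3.99, 4.33 and 3.91 in the controls and 2.54, 2.95 and 3.70 in flow, below the controls in each flow library. Atp5d, the delta subunit of the central stalk of the head, was the next in level within the complex, at 563, 538 and 546 FPKM without flow and 399.8, 506 and 545 FPKM after flow. Its flow values reached up into the controls in flow library 3, and its log2 fold change of -0.19 turned to 0.04 with the GC trend removed.

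Atp5k, the e subunit at the contact of ATP synthase dimers (chromosome 5 at 108433244 to 108434448), had the highest difference within complex V, with 192, 124 and 188 FPKM without flow and 276, 178 and 197 FPKM after flow. Non-flow control 2 was the lowest library and the groups overlapped (log2 fold change 0.37, SE 0.23). The least abundant tested members of complex V by name were the pair that are not subunits of it. Atp5s had 3.08, 4.69 and 3.11 FPKM without flow and 4.59, 5.54 and 3.56 FPKM after flow, and overlapped. Atp5sl (chromosome 7 at 25619414 to 25625551) had 7.31, 11.7 and 9.38 FPKM without flow and 5.52, 5.70 and 7.31 FPKM after flow. Its highest flow value lay below its lowest control by less than 0.01 FPKM, and the log2 fold change was -0.53 (SE 0.19).

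The c subunit of the rotor is encoded by 3 genes, Atp5g1, Atp5g2 and Atp5g3, and their mature parts are printed because the product is the same while the transcripts differ. The last 225 coding bases before the stop codon, from the GENCODE M21 transcripts, are given with the 57 positions in capitals at which the 3 differ, and their translations are identical.
Atp5g1: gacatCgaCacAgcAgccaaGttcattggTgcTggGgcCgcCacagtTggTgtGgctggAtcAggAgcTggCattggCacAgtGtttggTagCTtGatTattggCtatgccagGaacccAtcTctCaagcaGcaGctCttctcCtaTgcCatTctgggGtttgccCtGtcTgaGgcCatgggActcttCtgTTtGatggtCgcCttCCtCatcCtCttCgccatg
Atp5g2: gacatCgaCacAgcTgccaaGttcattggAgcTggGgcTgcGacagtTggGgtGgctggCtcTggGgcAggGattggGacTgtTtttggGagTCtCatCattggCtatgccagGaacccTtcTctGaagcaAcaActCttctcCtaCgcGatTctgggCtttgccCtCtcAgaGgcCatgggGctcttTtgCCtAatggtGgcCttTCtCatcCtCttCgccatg
Atp5g3: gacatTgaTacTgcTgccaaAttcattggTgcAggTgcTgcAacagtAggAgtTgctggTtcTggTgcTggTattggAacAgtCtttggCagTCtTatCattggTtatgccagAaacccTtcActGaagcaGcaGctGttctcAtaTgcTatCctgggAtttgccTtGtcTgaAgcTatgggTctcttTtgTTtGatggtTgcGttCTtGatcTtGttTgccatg
Over these bases Atp5g1 and Atp5g2 were 84.9% identical, Atp5g1 and Atp5g3 80.0%, and Atp5g2 and Atp5g3 78.7%. The longest run shared by any pair in their whole coding sequence was 20 bases, shorter than the 50 cycles of a read.

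Atp5g3 held the largest share of the c subunit transcript level, at 47.4% ± 2.96 in controls and 51.2% ± 3.77 in flow (SD, n = 3). Atp5g1 held 27.8% ± 1.81 and 28.4% ± 3.41, and Atp5g2 24.7% ± 1.37 and 20.4% ± 2.05. Atp5g2 (chromosome 15 at 102662864 to 102672352) had 164, 162 and 170.5 FPKM without flow and 129, 114 and 154 FPKM after flow. Each flow value was below each control, with flow library 3 the nearest, and the log2 fold change was -0.33 (SE 0.12), or -0.15 with the GC trend removed. Atp5g1 had 189, 188 and 182 FPKM without flow and 175, 189 and 186 FPKM after flow, and Atp5g3 354, 278 and 324 FPKM and 378, 283 and 339 FPKM. Both overlapped. Atp5g1 and Atp5g2 also have near-identical copies elsewhere in the annotation (at least 95% identity over 100 bases or more of coding sequence), whose levels sum to a mean of 17.5 and 41.1 FPKM, so their values are uncertain to that extent.

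The members' deviations from the controls followed the pattern of flow libraries 1 and 2 described above. Across the 74 tested members, the correlation of the deviation with the GC content of the transcript was -0.53 in flow library 1, -0.52 in flow library 2 and -0.16 in flow library 3, against -0.06, 0.09 and -0.04 in the controls, each set against the other 2. In flow library 1, 17 members lay more than 1.25-fold above the control mean and 8 below. In flow library 2 the numbers were 9 and 13, and in flow library 3 they were 0 and 1. The 37 members of lower GC content had a median deviation of 0.26, 0.10 and 0.02 in flow libraries 1 to 3, and the 37 of higher GC content -0.05, -0.16 and -0.01. The log2 fold change itself correlated with GC content at -0.54 over members and -0.55 over protein-coding genes. These are correlations across genes within the same libraries, and genes are not independent replicates.

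**Figure D4:**
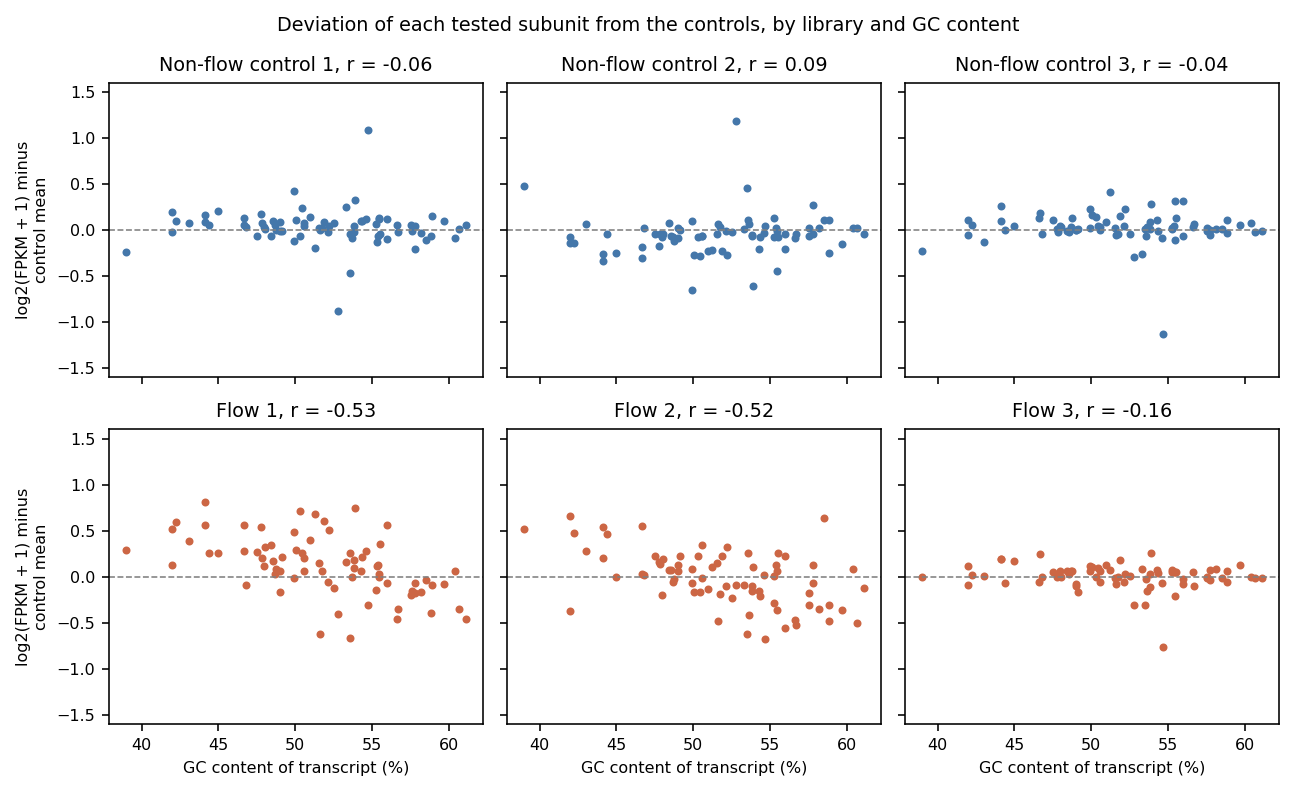
Deviation of each of the 74 tested members from the control mean on the log2(FPKM + 1) scale against the GC content of its transcript in percent, 1 panel per library, where a control is set against the other 2 controls. The cloud slopes down in flow libraries 1 and 2 (r = -0.53 and -0.52) and is flat in flow library 3 (r = -0.16) and the controls.

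With the GC trend of each library removed in protein-coding genes, limma called 0 of 74 members and 0 of 10460 genes. At an unadjusted p under 0.05, 6 members (8.11%) were higher, Cox7a2, Cox7c, Ndufb9, Ndufc1, Ndufv2 and Uqcr10, beside 3.14% of genes. On the lower side were 2 members (2.7%), Atp5b and Atp5sl, beside 3.58% of genes. Among the same protein-coding genes with no trend removed, limma also called 0. There 5 members were higher and 4 lower at that unadjusted p, and the share over all genes was not computed. With the trend removed, the median log2 fold change was 0.08 for all members, 0.11 for complex I, 0.13 for complex III, -0.03 for complex IV and 0.06 for complex V. Flow library 3 is also the deepest library, and flow libraries 1 and 2 are the shallowest. At 11020000 and 5750000 reads, libraries 1 and 2 had similar GC correlations over protein-coding genes, -0.56 and -0.54. Depth and the GC pattern cannot be told apart with these libraries.

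NRF1 and the ETS factor GABP (Gabpa with its beta partners) are known activators of many respiratory chain genes, and YY1 of several, and their motifs were counted in the promoters of the members. Of the 81 members 66 had an entry in the RefSeq promoter table (GRCm38.p6, 250 bases before to 50 after the start), 63 of them tested. On either strand, the NRF1 motif (GCGC, any 1 base, TGCGC) was in 15 of 63 (23.8%), against 12.7% of 8469 expressed protein-coding genes and 7.17% of all 17492 in the table. The YY1 motif AAGATGGC was in 11 (17.5%), against 5.83% and 3.57%. The ETS motif CCGGAAG was in 14 (22.2%), against 22.3% and 12.9%. The TATA box letters TATAAA were in 5 (7.94%), against 8.11% and 14.8%. So NRF1 and YY1 letters had a larger share among members than among expressed genes and ETS letters did not, and no enrichment test was run. No motif contains another, and 35 members (55.6%) held at least 1 of the NRF1, ETS and YY1 motifs.

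The 120 bases before the start are shown for the 5 members with a match there and at most 30 bases annotated as exon, and for Ndufv2, which has no match, with NRF1 and ETS matches of either strand in capitals. All 6 lie on the minus strand of GRCm38.p6: Atp5e at chr2:174464102-174464221, Cox6a1 at chr5:115348959-115349078, Ndufs5 at chr4:123718187-123718306, Uqcr11 at chr10:80406822-80406941, Uqcrh at chr4:116075071-116075190 and Ndufv2 at chr17:66101560-66101679.
Atp5e: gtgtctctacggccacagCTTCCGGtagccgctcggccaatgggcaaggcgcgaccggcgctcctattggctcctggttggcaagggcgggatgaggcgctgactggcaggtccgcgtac
Cox6a1: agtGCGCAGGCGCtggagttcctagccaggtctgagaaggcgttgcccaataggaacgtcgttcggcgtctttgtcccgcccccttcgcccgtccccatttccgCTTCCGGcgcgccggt
Ndufs5: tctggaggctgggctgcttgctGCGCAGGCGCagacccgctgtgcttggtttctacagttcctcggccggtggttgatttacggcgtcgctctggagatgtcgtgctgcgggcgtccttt
Uqcr11: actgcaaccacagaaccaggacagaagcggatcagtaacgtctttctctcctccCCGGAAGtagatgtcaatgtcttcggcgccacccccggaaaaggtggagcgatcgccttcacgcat
Uqcrh: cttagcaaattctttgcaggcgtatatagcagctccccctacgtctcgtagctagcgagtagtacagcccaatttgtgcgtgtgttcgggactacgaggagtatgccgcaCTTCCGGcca
Ndufv2: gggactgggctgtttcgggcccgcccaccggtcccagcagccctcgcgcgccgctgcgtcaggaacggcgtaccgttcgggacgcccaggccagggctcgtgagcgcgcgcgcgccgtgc
Cox6a1 carries both motifs, Ndufs5 an NRF1 match, and Atp5e, Uqcr11 and Uqcrh an ETS match. The differences of these members went in both directions. The log2 fold change was -0.31 for Cox6a1, 0.05 for the accessory complex I subunit Ndufs5, 0.08 for the epsilon subunit Atp5e of complex V, -0.11 for Uqcr11, 0.18 for the complex III hinge protein Uqcrh and 0.43 for Ndufv2. With the GC trend removed it was -0.10 for Cox6a1, 0.14 for Ndufs5, 0.21 for Atp5e, 0.10 for Uqcr11, 0.17 for Uqcrh and 0.24 for Ndufv2. Over the tested members, the median was 0.05 with and 0.04 without the NRF1 motif, 0.14 and 0.04 for ETS, and 0.08 and 0.04 for YY1, with no test of these differences. A match is a run of letters and not a shown binding site.

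The factors themselves were expressed. Nrf1 had 22.6, 22.8 and 23.00 FPKM without flow and 21.2, 21.8 and 23.1 FPKM after flow, and overlapped. Gabpa had 42.7, 36.7 and 40.7 FPKM without flow and 59.4, 56.4 and 42.6 FPKM after flow, with flow libraries 1 and 2 above the controls and flow library 3 within them (log2 fold change 0.38, SE 0.15, or 0.23 with the GC trend removed). Gabpa lies back to back with the member Atp5j on chromosome 16, and the annotated genes overlap by 701 bases on opposite strands, so reads of the overlap cannot be told apart without strand. Atp5j, a stalk subunit, had 394, 365 and 362 FPKM without flow and 551, 437 and 353 FPKM after flow, with the same 2 libraries above the controls. Of the 13 regulators of mitochondrial biogenesis 12 were tested, with 8 above 0 and a median of 0.09, and 1 (Gabpa) past an unadjusted p under 0.05. Tfb1m, also on this list, had 7.29, 8.29 and 8.26 FPKM without flow and 9.26, 10.9 and 9.18 FPKM after flow, all above. Ppargc1a, the coactivator PGC-1alpha, was under the tested level in the cells, at most at 0.893 FPKM.

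The other genes of the pathway gave 0 called members in each list (limma, adjusted p under 0.05), and their counts at an unadjusted p under 0.05 are set beside the same 3.7% higher and 4.82% lower of all genes. In complex II, 0 of 4 were past it in either direction, and Sdhc, a membrane anchor, had 187, 193 and 191 FPKM without flow and 179, 154 and 167 FPKM after flow, all below. Sdhd, the other anchor, overlapped (log2 fold change 0.04, or 0.02 with the GC trend removed). Among 17 tested electron carriers and genes of coenzyme Q synthesis it was again 0. Cycs, cytochrome c, had 59.4, 60.5 and 55.1 FPKM without flow and 86.4, 88.97 and 56.4 FPKM after flow, with flow library 3 within the controls. Coq10b, a coenzyme Q binding protein, had 14.9, 15.2 and 13.4 FPKM and 20.7, 20.4 and 14.04 FPKM. Cyc1, the cytochrome c1 subunit of complex III, had 143, 146 and 149 FPKM without flow and 124, 138 and 141 FPKM after flow, all below, and its log2 fold change of -0.12 (SE 0.09) turned to 0.03 with the GC trend removed.

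In the list of complex I assembly, 2 of 15 were higher and 0 lower at that level. The list also holds Ndufab1, the acyl carrier subunit of complex I, which had 122, 116 and 109 FPKM without flow and 126, 142 and 101 FPKM after flow and overlapped (log2 fold change 0.08, or -0.04 with the GC trend removed). Ndufaf4, a factor for the peripheral arm, had 22.8, 24.04 and 23.9 FPKM without flow and 36.3, 35.6 and 30.4 FPKM after flow, and all flow values were at least 6 FPKM above the controls. Its log2 fold change was 0.51 (SE 0.10; limma, adjusted p = 0.559), or 0.26 with the GC trend removed. Nubpl, which delivers iron-sulfur clusters to complex I, had 2.14, 3.02 and 4.42 FPKM without flow and 9.91, 4.48 and 5.32 FPKM after flow, the nearest pair 0.061 FPKM apart. Of 5 tested factors of complex III none was past it, and Ttc19 had 12.1, 11.2 and 12.1 FPKM without flow and 16.9, 14.8 and 12.7 FPKM after flow, all above. Lyrm7, which helps to insert the Rieske protein, had 10.03, 7.78 and 11.6 FPKM and 15.3, 12.8 and 9.77 FPKM, and overlapped.

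For complex IV, 0 of 22 assembly factors were higher and 2 lower. Pet117, an assembly factor of complex IV, had 30.6, 30.6 and 25.6 FPKM without flow and 15.04, 12.5 and 9.23 FPKM after flow. Its flow values lay at about 10 FPKM or more below the controls in all 3 libraries, flow library 3 being the lowest, so it did not follow the pattern of flow libraries 1 and 2. The log2 fold change was -1.19 (SE 0.18; limma, adjusted p = 0.469), or -1.02 with the GC trend removed, outside the range of -0.58 to 0.51 of the members. Cox15, an enzyme of heme a synthesis, had 18.8, 18.8 and 20.98 FPKM without flow and 11.9, 11.6 and 16.7 FPKM after flow, all below (log2 fold change -0.53, SE 0.16, or -0.59 with the GC trend removed). For complex V, 0 of 6 were past it. Usmg5, a small subunit at the dimer contact, had 184, 152 and 165 FPKM without flow and 294, 237 and 172 FPKM after flow, and 2010107E04Rik, a further small subunit, 241, 189.6 and 223 FPKM and 303, 209 and 232 FPKM. Both overlapped.

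The 13 subunits encoded in the mitochondrial genome join the nuclear ones in complexes I, III, IV and V. Of 12 tested, all 12 had a log2 fold change above 0, with a median of 0.26, and 1 was past an unadjusted p under 0.05. Their transcripts have a low GC content (median 36.6%), and with the GC trend removed the median was -0.05. mt-Nd3 had 985, 802 and 1006 FPKM without flow and 2116, 1649 and 1334 FPKM after flow, the only one with all flow values above. Its log2 fold change was 0.85 (SE 0.19; limma, adjusted p = 0.559), or 0.45 with the GC trend removed. mt-Co3 had 3712, 2694 and 2889 FPKM and 5453, 3936 and 3147 FPKM and overlapped. The ratio of the summed mitochondrial to the summed nuclear transcripts was 4.27, 2.98 and 2.74 in the controls and 5.46, 3.97 and 3.15 in flow, with overlapping groups. A large part of the mitochondrial sum is mt-Atp8 alone, at 18660 to 29120 FPKM in controls and 21180 to 39030 FPKM in flow. The sums were 37110 to 58130 FPKM and 42140 to 76550 FPKM, so the ratio leans on this 1 gene. mt-Nd4l, listed at 0 in 5 libraries, was left out of that sum.

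Of 9 genes that link the chain to oxygen supply 6 were tested, 0 higher and 3 lower at an unadjusted p under 0.05, with a median of -0.42 and all 6 below 0. This list was chosen with earlier results of these data known, so its counts and median describe it and test nothing. The members themselves do not lie on this list except Cox4i2 and Ndufa4l2, both under the tested level. Bnip3, a mitochondrial protein that promotes removal of mitochondria, had 56.2, 51.3 and 77.6 FPKM without flow and 17.4, 12.1 and 20.1 FPKM after flow. The highest flow value was well below the lowest control, and the log2 fold change was -1.85 (SE 0.23; limma, adjusted p = 0.413). Pdk1, a kinase that keeps pyruvate out of mitochondrial oxidation, had 22.5, 18.9 and 27.8 FPKM without flow and 7.81, 7.30 and 14.7 FPKM after flow, all below.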

How the data were processed

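RNA of 3 flow and 3 non-flow control cultures was sequenced for 50 cycles, per the labels' protocols. Tools listed in the submitters' processing notes are Cufflinks 2.2.1, TopHat2 2.0.9 and CASAVA 1.8.2, with build mm10. For annotation, counting settings and strand use, the sources used here give nothing. The authors deposited 2 FPKM tables without counts. The one whose 6 columns match the library titles was tested. In the other, 2 flow columns were used by group only, and 22 repeated identifiers were reduced to the row with the higher mean. Depth was estimated from FPKM steps (transcript length minus 200 nt, single-transcript genes over 800 nt): 74.4% to 81.0% of values came out whole, no count model was fitted. Levels given for 3 reads cover counting error only, whereas limma's 95% intervals rest on the spread among cultures.

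Genes averaging 1 FPKM or more were tested on log2(FPKM + 1), which understates changes of low genes, with limma 3.58.1 in R 4.3.3 (eBayes with trend, two-sided, Benjamini-Hochberg, threshold 0.05, no covariate), and checked on simulated data. P-values rest on the spread among 3 cultures a group. An exact permutation test of 3 against 3 cannot go below 0.1 and was not run. Of 6831 protein-coding genes at 10 FPKM or more on average, 2 held an exact 0, which may be a failed estimate, so the text calls such values listed at 0. Bulk RNA cannot separate fewer cells from less RNA per cell. Gene positions (1-based), lengths, GC content, exon overlaps and coding sequence came from GENCODE M21, on mm10. GC trends were removed per library by loess (span 0.3). Copies were searched with BLAST 2.17.0, promoters came from RefSeq (GRCm38.p6).

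Members and lists were chosen with earlier results of these data known. Named genes are, per complex, the 4 with the smallest p, the 2 highest and the lowest in level, the isoform families, and 2 per further list with the smallest p. Ndufv1, Atp5a1, Atp5j, Atp5h, Ndufs5, Atp5e, Uqcrh and Nrf1 were added as partners or for their promoters after their values were seen. Cyc1 and Ndufab1, as subunits with other symbols, and Ppargc1a are also described outside these rules. Alternatives were another pseudocount, filter, scaling, variance model and table, pairs, GC and length correction, libraries left out, and protein-coding genes alone, the last chosen after the data were seen.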

Additional observations from a re-analysis of the deposited data

How the results depend on the processing

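No member was called (limma, adjusted p under 0.05) under any of the 19 alternatives. The 31 followed subunits gave 585 alternative values, 556 of them with the same direction and side of the threshold and 29 reversed, in 18 genes. With the GC trend removed, the log2 fold change turned for Atp5d (0.038), Cox4i1 (0.032), Ndufa11 (0.053), Uqcr11 (0.10), Uqcrc1 (0.064) and Uqcrq (0.16). In the other deposited table, with repeated identifiers reduced or summed, it turned for Atp5sl (0.28), Cox7a1 (1.14), Cox7b (1.20) and Uqcrfs1 (-0.11). Non-flow control 1 of that table had 690000 reads, against 3610000 to 4720000 in the remaining columns. Cox7b had 70.9 FPKM in it, beside 675 and 594 FPKM in controls 2 and 3 and 736, 585 and 804 FPKM in flow. Cox7a1 was listed at 0 in controls 1 and 3. Without flow replicates 1 and 2 together, where flow library 3 is assumed to vary like the controls, the log2 fold change turned for Atp5s (-0.0038), Cox8a (-0.012), Ndufa11 (0.084), Ndufa5 (-0.0088), Uqcr11 (0.065) and Uqcrc2 (-0.066). With single libraries left out in turn, the range crossed 0 for Atp5g1 (-0.047 to 0.0094, turned without flow 1), Atp5g3 (-0.034 to 0.17, turned without flow 1 or control 2), Cox6a2 (-0.56 to 0.12, turned without control 2), Cox6b1 (-0.0073 to 0.26, turned without flow 1), Cox7b (-0.23 to 0.016, turned without flow 2), Cox8a (-0.023 to 0.31, turned without flow 2) and Uqcrq (-0.11 to 0.057, turned without control 2 or flow 1). The cause was not tested.

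Over all genes, limma called 4 with a pseudocount of 0.1, 4 with no filter, 1 with pairs, 0 with the GC or the length trend removed, 75 without flow replicates 1 and 2 together, 0 among protein-coding genes alone, and 9 to 24 with single libraries left out. Members at an unadjusted p under 0.05 and higher in flow numbered 5 with pairs and 6 with the GC trend removed. They numbered 5 among protein-coding genes alone and 0 to 16 with single libraries left out. Lower in flow were 2 with no variance trend and 2 with the GC trend removed. In the other deposited table, also with repeated identifiers summed, 0 were lower. With single libraries left out, 0 to 9 were lower. The share over all genes was not computed with no variance trend, with identifiers summed or among protein-coding genes alone. Member counts under those settings therefore cannot be set beside a background. The median was 0.11 for complex I with the GC trend removed. For complex III it was -0.038 in the other table, also with identifiers summed, and 0.023 without flow replicates 1 and 2 together. For complex IV it was -0.055 with no filter, -0.022 with quantile normalization, 0.12 in the other table, -0.025 and -0.064 with the GC or the length trend removed, and -0.023 to 0.0025 with single libraries left out.

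Adjacent title numbers (3 and 4, 11 and 12, 19 and 20) were tried as pairs in a replicate block. Deviations of adjacent titles correlated at 0.043, 0.023 and 0.064 by Pearson, beside -0.068 to 0.027 for other combinations, and at 0.24, 0.30 and 0.28 by Spearman, beside -0.22 to -0.084. Each sample correlated best with its adjacent number by Spearman. By Pearson the same held except for non-flow control 2, at 0.027 with flow library 1 and 0.023 with flow library 2. Deviations were taken from the mean of each group of 3, so positive values for some combinations partly force negative values for others. The pairing is not established. The block called 0 members (0.00836% of all genes), with 5 higher and 3 lower at an unadjusted p under 0.05 (5.14% and 6.6% of all genes). Depth limits the isoforms near the 3-read level and flow library 2, where the members had a median of 365 reads, against 1279 in non-flow control 3.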

Other observations

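The other deposited table holds 80 of the 81 members. Its depth was 690000 reads in non-flow control 1 and 3610000 to 4720000 reads in the remaining columns. Of its flow columns 2 cannot be tied to a replicate. Its other 4 columns carry titles of the same samples, so it is not an independent check. Ndufc1 had 106, 94.2 and 119 FPKM there in the 3 controls and 185, 150 and 126 FPKM in the 3 flow columns, all above the controls (log2 fold change 0.52; limma, adjusted p = 0.751). Ndufa4 had 398, 354 and 472 FPKM without flow and 594, 465 and 498 FPKM after flow, and overlapped by 1 library. Cox7c had 69.6, 55.5 and 82.4 FPKM without flow and 55.9, 75.7 and 77.2 FPKM after flow, so its separation in the tested table was not seen there (log2 fold change 0.01). Ndufv2 had 156, 89.8 and 98.6 FPKM without flow and 138, 152 and 113 FPKM after flow. It overlapped through non-flow control 1 alone, the shallowest column of that table. Atp5b had 1685, 1798 and 1716 FPKM without flow and 1214, 1220 and 1776 FPKM after flow, of which 1 flow column lay among the controls.

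Of the 81 members 24 have a copy elsewhere in the annotation that matches their coding sequence at 95% identity or more, and for 3 of them, Atp5g1, Atp5g2 and Atp5l2, the copies sum to more than 5 FPKM. Atp5l2 is the processed pseudogene, at a mean of 0.337 FPKM. Its copies sum to 79.8 FPKM and include the member Atp5l, at 78.6 FPKM. Exon bases are shared with another gene by 29 members, and by more than 20% of their length in Atp5o, Ndufa13 and Ndufb6.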
